A study of Mus musculus with 24 samples.

Results

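Brown adipose tissue of mice on a corn-oil high-fat diet (HFD) was set against brown adipose tissue of mice fed a low-fat diet. The members are the arrays labelled brown adipose tissue on these diets, 4 on the corn-oil HFD and 4 on the low-fat diet, which makes 8 of the 24 arrays of the series. The other 16 arrays are 4 of brown fat on an HFD with the omega-3 fatty acids EPA and DHA (EPA/DHA), and 12 of white fat on the same 3 diets. Total RNA had been hybridised to Illumina mouse expression arrays. All mice of all groups were male C57Bl/6J, and no allele, transgene or drug is named. Within each diet, mice had been picked to stand for their group in body weight, plasma triglyceride and plasma cholesterol. Age, time on the diet and the dissection of the brown depot are not given in the sources used here. The tissue label names brown adipose tissue, whereas the extraction text speaks of RNA from skeletal muscle.

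Brown fat burns fatty acids for heat: Ucp1 in the inner mitochondrial membrane lets protons return without making ATP, and noradrenaline from sympathetic nerves switches the process on through beta-adrenergic receptors. Brown adipocytes hold many small lipid droplets and make fatty acids as well as burn them. White adipocytes hold a single large droplet, and their leptin (Lep) output follows fat mass. The interscapular brown depot lies against skeletal muscle.

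Values are log2 expression, differences are corn-oil HFD minus low-fat with ± their standard error, means carry ± SD, and n = 4 arrays in each group throughout. The values of the 24 arrays ran from a floor near 7 (6.95) to 14.79, so differences of very dim and very bright genes can be understated. Values of different genes are not compared, since each comes from its own probe. Ucp1, Cidea and Cox7a1, defining markers of brown adipocytes, had values close to the top of the range. Ucp1 averaged 13.92 in corn-oil HFD arrays and 14.16 in low-fat arrays, and Cidea, a lipid droplet protein of brown fat, 13.92 in corn-oil HFD arrays and 14.19 in low-fat arrays. The cytochrome oxidase isoform Cox7a1 averaged 14.15 in corn-oil HFD arrays and 14.14 in low-fat arrays. Prdm16, a transcription factor of brown fat, averaged 7.99 in corn-oil HFD arrays and 8.12 in low-fat arrays. Mean correlations of a brown array with the others ran from 0.969, in low-fat replicate 2, to 0.99. That array also stood apart gene by gene, with 319 genes more than 1 log2 unit from the median of the other 3 low-fat arrays, against 11 to 23 genes for the other low-fat arrays.

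Leptin gave the largest difference between the diets among the 13400 genes tested, and lipid-handling genes such as Acot1, Ffar4 and Elovl3 gave the most negative ones. No gene passed the test: limma, with p-values adjusted by the Benjamini-Hochberg method over 27168 probes, called 0 of the 13400 genes (0.0%) at an adjusted p of 0.05, and the smallest adjusted p was 0.174. At an unadjusted p of 0.05, 1220 genes (9.1%) lay past the threshold, 528 higher (3.94%) and 692 lower (5.16%) on corn oil. The 4 corn-oil HFD arrays did not overlap the 4 low-fat arrays in 690 genes (5.15%), 303 of them higher (2.26%) and 387 lower (2.89%). The median difference over all genes was -0.003, and the middle 90% of genes lay between -0.21 and 0.25. For the 100 genes named by rule, adjusted p-values ran from 0.174 to 0.982. All differences below are therefore measured values that did not pass the adjusted threshold in this fit. One fit changed this more than the others: with the spread estimated over all 24 arrays, white fat included, 88 genes passed, 32 higher (0.239%) and 56 lower (0.418%), and its adjusted p is given where it is used. The labels do not say that the arrays are of separate preparations beyond the selection of 4 mice per diet, so p-values measure the spread between these arrays.

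**Figure D1:**
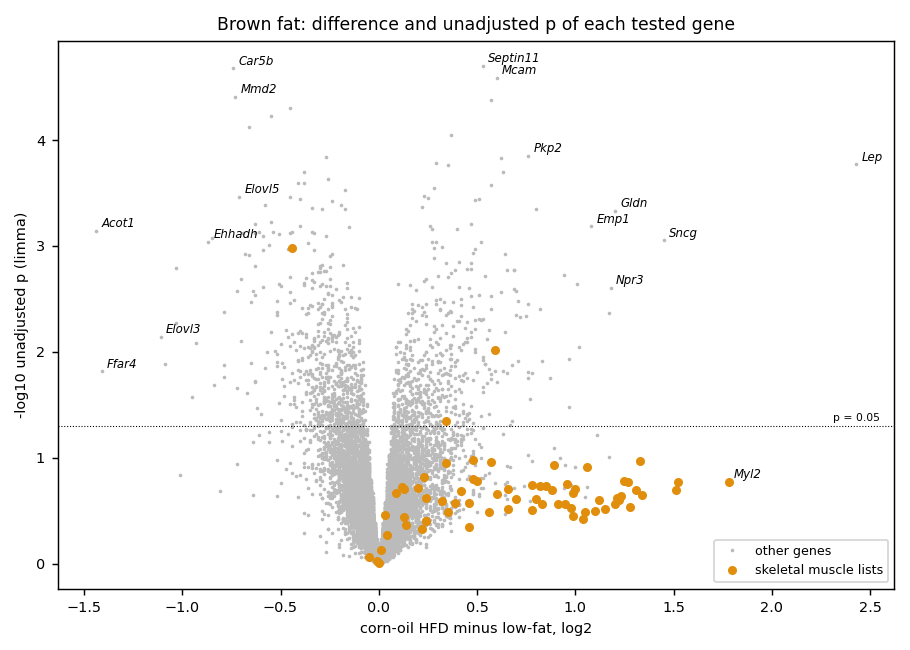
Each point is 1 of the 13400 tested genes, with the corn-oil HFD minus low-fat difference (log2) on the horizontal axis and -log10 of the unadjusted limma p on the vertical axis, and orange points mark the skeletal muscle lists. Lep lies far to the right at 2.43, and the muscle genes reach differences up to 1.78 (Myl2) while most of them lie under the dotted line, which marks the unadjusted threshold.

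Lep encodes leptin, the hormone of adipocytes that curbs food intake. Its values were 11.56, 11.11, 11.83 and 10.19 in corn-oil HFD arrays, against 9.76, 8.36, 7.79 and 9.05 in low-fat arrays. Every corn-oil HFD array lay above every low-fat array, with a narrow gap between corn-oil HFD replicate 4 and low-fat replicate 1. The difference was 2.43 ± 0.44 (limma, adjusted p = 0.185), a ratio of 5.4 if the scale is a plain log2, and it lay between 2.12 and 2.77 when any 1 of the 8 arrays was left out. The fit over all 24 arrays gave an adjusted p of 0.00582 (limma), with an SE of 0.38. It takes part of its spread from white fat, where Lep averaged 13.75 on the low-fat diet. This p-value therefore does not measure the spread of brown arrays alone. In bulk tissue, more cells of a type cannot be told apart from more RNA per cell, here and in all that follows.

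The 250 bases before the start of Lep and of the muscle gene Atp2a1 are shown. Lep gave the largest difference between the diets, and Atp2a1 is among the muscle genes that varied between arrays. The bases come from RefSeq (GRCm38.p6) and read 5′ to 3′ on the gene's strand. Capitals mark TTGCNNAA, the pattern of a site for C/EBP factors, which drive adipocyte genes, in Lep at chr6:29059971-29060220 on the plus strand. In Atp2a1, at chr7:126463074-126463323 on the minus strand, they mark CAGCTG, an E-box of the kind bound by muscle factors such as Myod1.
Lep: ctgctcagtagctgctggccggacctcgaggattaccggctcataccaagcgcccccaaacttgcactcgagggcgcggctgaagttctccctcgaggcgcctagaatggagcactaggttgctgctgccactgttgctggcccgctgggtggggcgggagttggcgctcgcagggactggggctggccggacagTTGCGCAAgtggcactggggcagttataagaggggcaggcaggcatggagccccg
Atp2a1: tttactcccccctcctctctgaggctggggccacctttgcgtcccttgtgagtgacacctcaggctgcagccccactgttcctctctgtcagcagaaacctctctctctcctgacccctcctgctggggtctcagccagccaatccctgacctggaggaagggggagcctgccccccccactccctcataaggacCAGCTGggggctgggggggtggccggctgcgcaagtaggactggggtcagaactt
Both strands of each window were searched. TTGCNNAA lay in 9.56% of 32851 promoter windows of this length, and of the 16 genes with the largest separate differences, 13 of which had a promoter in the table, it lay in Lep and Acot1, and of the 8 muscle genes with a promoter it lay in Mb. CAGCTG lay in 13.0% of all windows, in none of those 13 genes, and in 4 of the 8 muscle genes with a promoter (Atp2a1, Mb, Myl2 and Tpm2, some with more than 1 window). The percentages are shares of windows, whereas a gene was counted when any of its windows matched, so gene counts and percentages are unlike measures. A match is a description of letters, not of a bound site.

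The other large positive differences whose groups did not overlap were in genes of several kinds. Sncg (synuclein gamma, a protein of neurons and white adipocytes) had 9.96, 10.69, 11.22 and 10.10 in corn-oil HFD arrays, against 9.54, 8.83, 8.24 and 9.58 in low-fat arrays. The groups were separate, and both Sncg probes were higher, by 1.45 ± 0.32 and, at the dimmer one, 1.18 ± 0.21. Npr3, the clearance receptor that removes natriuretic peptides, had 9.66, 9.13, 9.72 and 9.37 in corn-oil HFD arrays and 8.80, 7.52, 8.06 and 8.80 in low-fat arrays. Its difference was 1.18 ± 0.30 at the brightest probe. All 5 kept Npr3 probes were separate between the diets, with differences from 0.34 to 1.18, and the dimmest had the smallest unadjusted p of any probe (9.4e-06, adjusted p = 0.174 by limma).

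Gldn, which encodes gliomedin, an extracellular protein of nerve nodes, had 9.90, 9.68, 9.22 and 9.38 on corn oil, against 9.03, 8.13, 7.84 and 8.38 on the low-fat diet. It differed by 1.20 ± 0.24, and the low-fat arrays were spread over more than 1 unit. Emp1, an epithelial membrane protein, was at 10.29 ± 0.36 in corn-oil HFD arrays and 9.21 ± 0.45 in low-fat arrays, a difference of 1.08 ± 0.23. For 2610016A17Rik, a transcript of no given role, the difference was 1.01 ± 0.26.

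Fhl1, a LIM protein of striated muscle, had 11.48, 11.64, 12.60 and 12.23 on corn oil, against 11.04, 10.47, 10.52 and 11.24 on the low-fat diet. Gpc1, a heparan sulphate proteoglycan, had 9.16, 9.04, 10.18 and 9.74 on corn oil, against 8.53, 8.43, 8.18 and 8.90 on the low-fat diet. In both genes corn-oil HFD replicates 3 and 4 were the highest arrays, and these are also the corn-oil arrays highest in muscle transcripts (below). The other Fhl1 probes gave 1.12 and, at the floor, 0.0. With the muscle score as a covariate the Fhl1 difference was 0.81, against 1.17 ± 0.33 without it. For Gpc1 it was 0.64, against 1.02 ± 0.32. Covariate values for Lep (2.50), Gldn (1.36), Npr3 (1.20) and Sncg (1.32) differed less from the values without it (2.43, 1.20, 1.18 and 1.45).

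The genes of smallest p had smaller but tighter differences. Septin11, a cytoskeletal GTPase, had 9.72, 9.89, 9.88 and 9.66 on corn oil, against 9.34, 9.08, 9.23 and 9.40 on the low-fat diet, a difference of 0.53 ± 0.07. Mcam, the cell adhesion molecule of endothelium and pericytes, had 8.97, 9.05, 9.24 and 9.0 on corn oil, against 8.65, 8.40, 8.32 and 8.5 on the low-fat diet, a difference of 0.60 ± 0.09. Fgf1, a growth factor made in adipose tissue, had 8.87, 8.53, 8.85 and 8.49 on corn oil, against 8.17, 8.06, 8.08 and 8.16 on the low-fat diet, a difference of 0.57 ± 0.09. All 3 genes separated the diets at these probes. The other Mcam probes gave 0.30 and 0.20, and the other Fgf1 probe 0.06. The desmosomal gene Pkp2 was higher at all 3 of its probes (0.76 ± 0.13 at the brightest), and its groups did not overlap at any of them.

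Of the remaining genes among the 20 smallest p-values that were higher on corn oil, the catenin-like gene Ctnnal1 differed by 0.62 ± 0.11, Apol6 by 0.63 ± 0.11, Klc1 (kinesin light chain) by 0.37 ± 0.06, Cd59a (a complement inhibitor) by 0.35 ± 0.06 and Apbb2 by 0.29 ± 0.05. These are the brightest probes, and others did not follow them: the other 4 Klc1 probes gave 0.01 to 0.06, the other Apbb2 probe -0.01, and the other Ctnnal1 probes 0.0 and -0.13. Those lower on corn oil included a mitochondrial carbonic anhydrase, Car5b. Its values were 8.68, 8.77, 8.89 and 8.51 on corn oil, against 9.46, 9.61, 9.54 and 9.21 on the low-fat diet, a difference of -0.74 ± 0.11 with all 4 probes negative (-0.74 to -0.46). Mmd2, a membrane protein of the progestin and adipoQ receptor family, had 7.76, 7.82, 7.91 and 7.83 on corn oil, against 8.5, 8.94, 8.44 and 8.36 on the low-fat diet, and its difference was -0.73 ± 0.11. In both genes the low-fat arrays lay clear of every corn-oil array.

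The other lower genes among the 20 smallest p-values were of several kinds. Pex14, part of the docking complex for peroxisomal import, differed by -0.66 ± 0.11, Isoc2a by -0.45 ± 0.07, the kynurenine aminotransferase gene Kyat3 by -0.38 ± 0.07, the haem-binding protein Hebp2 by -0.38 ± 0.07, the tetraspanin Tspan18 by -0.55 ± 0.09, Rab5c of early endosomes by -0.41 ± 0.08, Cyhr1 by -0.27 ± 0.05 and C1qtnf4 by -0.26 ± 0.05. None overlapped between the diets at its brightest probe. The other probes of Tspan18 (-0.42) and Kyat3 (-0.33) were also separate, whereas the other Hebp2 probe gave -0.02 and the other 4 Cyhr1 probes gave -0.16 to 0.03, all with overlapping groups.

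**Figure D2:**
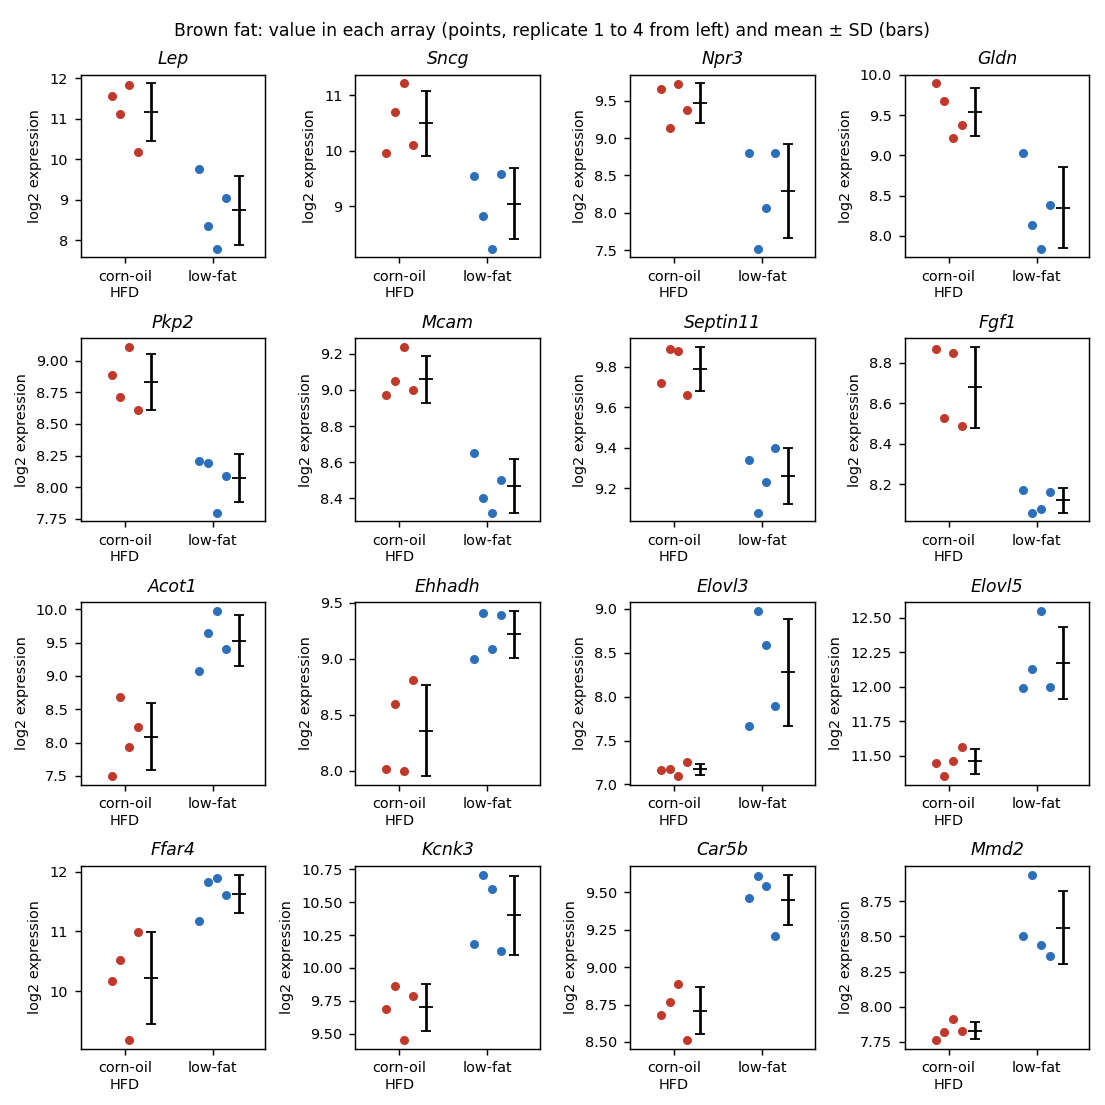
Log2 expression of 16 genes in corn-oil HFD arrays (red, left) and low-fat arrays (blue, right), with the mean ± SD of 4 arrays as black bars; each panel has its own vertical axis. Lep ran from 10.19 to 11.83 in corn-oil HFD arrays and from 7.79 to 9.76 in low-fat arrays, and Elovl3 lay near the floor in every corn-oil array (7.09 to 7.25).

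Among genes whose groups did not overlap, the largest negative differences were those of Acot1, Ffar4 and Elovl3, which sense or process fatty acids. Acot1, an acyl-CoA thioesterase and known PPAR alpha target, had 7.49, 8.69, 7.94 and 8.23 on corn oil, against 9.08, 9.65, 9.98 and 9.41 on the low-fat diet. The groups did not overlap, the difference was -1.44 ± 0.31, and a dimmer probe gave -0.53 ± 0.09. Acot1 has near-identical relatives and its probes were not aligned, so its identity is uncertain, as is that of Acot4 (-0.79 ± 0.22). Ffar4, the receptor for long-chain fatty acids also called GPR120, had 10.17, 10.52, 9.18 and 10.99 on corn oil, against 11.18, 11.83, 11.90 and 11.60 on the low-fat diet, with a difference of -1.41 ± 0.49. Elovl3, the very-long-chain elongase typical of brown fat, had 7.16, 7.18, 7.09 and 7.25 on corn oil, against 7.67, 8.98, 8.59 and 7.89 on the low-fat diet. Its corn-oil values lay at the floor, so the difference of -1.11 ± 0.34 can be understated.

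Ehhadh, the peroxisomal bifunctional enzyme of beta-oxidation, had 8.02, 8.60, 8.0 and 8.81 on corn oil, against 9.0, 9.41, 9.09 and 9.39 on the low-fat diet. The difference was -0.87 ± 0.19. Acsl5, which activates fatty acids to acyl-CoA, had 12.63, 12.34, 12.11 and 12.45 on corn oil, against 12.79, 13.49, 13.69 and 13.26 on the low-fat diet, with a difference of -0.93 ± 0.29. Its other probes gave -0.99 and, at the dimmest, -0.17. Elovl5, the elongase of polyunsaturated fatty acids, had 11.45, 11.35, 11.46 and 11.56 on corn oil, against 11.99, 12.13, 12.55 and 12 on the low-fat diet, with a difference of -0.71 ± 0.14. Its corn-oil arrays lay close together, and low-fat replicate 3 was its highest array. Aspg, an asparaginase, differed by -1.03 ± 0.25, and Tst, the mitochondrial rhodanese, by -0.85 ± 0.19. In the fit over all 24 arrays the adjusted p was 0.0154 for Acot1, 0.0259 for Ehhadh, 0.0377 for Elovl5, 0.0268 for Aspg, 0.0355 for Acot4 and 0.0496 for Elovl3 and Tst, whereas Ffar4 (0.0882) and Acsl5 (0.0973) did not pass there either. That fit takes part of its spread from white fat, where Elovl3 (7.13), Aspg (7.22) and Acot1 (7.50) lay at or near the floor on the low-fat diet. Its SE was 0.25 for Elovl3, against 0.34 in the brown fit, and 0.26 for Acot1, against 0.31. For such genes its p-values do not measure the spread of brown arrays alone.

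As lists, 10 of the 14 tested genes of fatty acid uptake and binding were lower on corn oil (51.8% of all genes were), with a median difference of -0.17, beside -0.003 for all genes. The list is wider than its name, since it also holds receptors such as Hcar1 and Ffar4. In this list 6 members separated the diets lower (Fabp5, Slc27a1, Slc27a4, Lipa, Hcar1 and Ffar4), and none separated higher. Of all genes, 2.89% separated lower and 2.26% higher. The fatty acid transporter Slc27a1 was at 9.03 ± 0.15 in corn-oil HFD arrays and 9.66 ± 0.28 in low-fat arrays, a difference of -0.63 ± 0.14. Hcar1, the lactate receptor that restrains lipolysis, differed by -0.69 ± 0.15. The triglyceride and lipid droplet list had 19 of 22 tested members below 0 (median -0.18), with Agpat2, Fitm2 and Bscl2 separate lower and Plin4 separate higher. Fitm2, a droplet-forming protein, differed by -0.29 ± 0.08 and the droplet coat protein Plin4 by 0.42 ± 0.11.

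Fatty acid synthesis genes were lower in 16 of 23 (median -0.18), with Fasn, Elovl5, Me1, Pgd and Acsl5 separate, where 51.8% of all genes were below 0 and 2.89% separate lower. Fasn, the fatty acid synthase, had 9.29, 9.23, 8.99 and 9.08 on corn oil, against 9.31, 10.03, 9.47 and 9.47 on the low-fat diet, a difference of -0.43 ± 0.17 (adjusted p = 0.544 by limma), which was -0.27 without low-fat replicate 2, its highest array. Scd1, the stearoyl-CoA desaturase, lay at 14.42 ± 0.17 in corn-oil HFD arrays and 14.44 ± 0.17 in low-fat arrays (difference -0.02 ± 0.11), near the top of the range. Fatty acid oxidation genes were lower in 16 of 24 (median -0.12, but -0.02 without corn-oil replicates 3 and 4); Slc25a20, Eci1, Acot1, Ehhadh and Ucp3 were separate lower, and Hadha and Fabp3 separate higher. Ucp3 differed by -0.21 ± 0.08. The genes of cholesterol synthesis and uptake were lower in 14 of 17 (median -0.20, but -0.07 without low-fat replicate 2), with Fdps, Sqle and Hsd17b7 separate. Sqle, the squalene epoxidase, differed by -0.63 ± 0.15 and Hsd17b7 by -0.32 ± 0.11.

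Of the thermogenic genes, Ucp1, Cidea, Dio2 and Ppargc1a had overlapping groups. Ucp1 had 14.14, 14.06, 13.55 and 13.91 in corn-oil HFD arrays, against 14.15, 14.12, 14.15 and 14.23 in low-fat arrays. Corn-oil replicate 3 was the lowest, the groups overlapped, and the difference was -0.25 ± 0.15 (limma, adjusted p = 0.728). Cidea differed by -0.27 ± 0.10, Dio2, the deiodinase that makes active thyroid hormone, by -0.52 ± 0.29, and the coactivator Ppargc1a by -0.81 ± 0.61. Ppargc1a ranged from 8.91 to 11.38 in corn-oil HFD arrays and from 9.60 to 12.19 in low-fat arrays, so its groups overlapped widely. Leaving out 1 array gave -1.26 (without corn-oil replicate 4) to -0.37 (without low-fat replicate 3) for Ppargc1a. The Dio2 difference was -0.28 without low-fat replicate 3, and that of Ucp1 was -0.13 without corn-oil replicate 3. Of the 29 tested genes of brown adipocyte identity and thermogenesis, 20 were below 0 (51.8% of all genes were), with a median of -0.06. Elovl3 and the potassium channel Kcnk3 (-0.70 ± 0.18) were separate lower and P2rx5 separate higher. Of all genes, 2.89% were separate lower and 2.26% higher. Adcy3, the adenylyl cyclase of the beta-adrenergic pathway, differed by -0.68 ± 0.16, and the phosphodiesterase Pde4d by -0.44 ± 0.20 (-0.28 without corn-oil replicate 3). Dimmer probes did not follow, at 0.0 for Adcy3 and -0.05 to 0.08 for Pde4d. The adrenergic list as a whole had 10 of 14 members above 0 (48.2% of all genes), with a median of 0.06, but -0.04 without low-fat replicate 2.

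Oxidative phosphorylation genes, 33 tested, had a median difference of 0.03, with no member separate between the diets. Cox5b differed by 0.10 ± 0.04 (0.02 at its other probe) and Uqcrc2 by 0.20 ± 0.09 (0.12 without low-fat replicate 2). In the citric acid cycle list (20 tested, median 0.05), Pdk2, a kinase that restrains pyruvate entry, differed by -0.33 ± 0.07 with separate groups, Pdk1 by -0.33 ± 0.10, and Pdk4 by -0.12 ± 0.23. The other Pdk1 probe, near the floor, gave -0.03. For glucose uptake and glycolysis (16 tested, median -0.01), the insulin-responsive transporter Slc2a4 differed by -0.27 ± 0.10 and Pfkfb3 by -0.14 ± 0.06. The branched-chain amino acid list had 14 of 17 members below 0 (51.8% of all genes were). Its median was -0.05, and -0.14 without low-fat replicate 2. Members below 0 included Bcat2 (-0.34 ± 0.11) and Mccc1 (-0.25 ± 0.12, but -0.12 without low-fat replicate 4).

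Adipokine and adiposity-associated genes were above 0 in 17 of 19 (median 0.26), where 48.2% of all genes were. The separate members were Lep, Npr3, Sncg, Hp and Lbp, all higher on corn oil, as 2.26% of all genes were. In low-fat white fat, Lep averaged 13.75, Sncg 13.39 and Npr3 11.91, each above its own level in brown fat. The mean level of the 9 measured white adipocyte markers, of which Lep is one, was 8.16 to 8.53 in corn-oil HFD brown arrays and 7.90 to 8.16 in low-fat brown arrays, while the median difference of the 7 tested markers was 0.04. The part of white adipocyte transcripts in these differences was not tested. Hp, haptoglobin, was at 12.36 ± 0.05 in corn-oil HFD arrays and 11.67 ± 0.51 in low-fat arrays, a difference of 0.70 ± 0.20. Adipoq, adiponectin, was at 13.42 ± 0.16 in corn-oil HFD arrays and 13.48 ± 0.08 in low-fat arrays, a difference of -0.07 ± 0.09. Mest, a gene whose expression follows the growth of fat tissue, gave 0.30 ± 0.10 at the probe of highest signal, with overlapping groups, and its other probes gave 0.28 ± 0.05 and 0.19 ± 0.05, all near the floor. The insulin signalling and adipogenic list (19 tested, median 0.02) held Grb14, an inhibitor of the insulin receptor, at 0.48 ± 0.17, and Cebpb at -0.44 ± 0.23. Of the circulating and secreted growth factors, 13 of 18 were above 0 (48.2% of all genes were). Fgf1, Fgf10 (0.25 ± 0.05), Igfbp5 and Vegfb were separate higher, as 2.26% of all genes were. The other kept Fgf10 probe gave 0.08, with overlapping groups.

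Extracellular matrix genes were above 0 in 24 of 27 (median 0.20), where 48.2% of all genes were. Lox, Thbs2, Dcn, Lum and Bgn were separate higher, as 2.26% of all genes were. The list level was 8.64, 8.79, 9.01 and 8.61 in corn-oil HFD arrays, against 8.57, 8.66, 8.45 and 8.55 in low-fat arrays. The groups overlapped, and corn-oil replicate 3, also highest in muscle score, was the highest array. Bgn, the proteoglycan biglycan, was at 10.37 ± 0.23 in corn-oil HFD arrays and 9.86 ± 0.20 in low-fat arrays, a difference of 0.51 ± 0.13. Col4a1, a basement membrane collagen, differed by 0.37 ± 0.10. Markers of fibroblasts and adipose progenitors were higher beside them, with 9 of 9 tested markers above 0 (median 0.17), where 48.2% of all genes were. Their list level was 7.75 to 8.25 in corn-oil arrays and 7.63 to 7.76 in low-fat arrays. The 15 endothelial markers had levels of 9.12 to 9.17 in corn-oil HFD arrays and 8.96 to 9.14 in low-fat arrays. The 13 smooth muscle and pericyte markers had 8.36 to 8.51 in corn-oil HFD arrays and 8.24 to 8.31 in low-fat arrays. The median difference was 0.09 for the endothelial list and 0.06 for the smooth muscle list, with no member of either separate between the diets. Des, in the smooth muscle list, is also in the skeletal muscle lists. Without low-fat replicate 2 the median was 0.25 for the matrix list and 0.22 for the adipokine list, and without corn-oil replicates 3 and 4 it was 0.15 for the matrix list and 0.23 for the adipokine list. The part of these cell markers in the matrix and Mcam differences was not tested.

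The medians of the immune lists were 0.16 or less. Of all genes, 48.2% were above 0 and 51.8% below. Macrophage markers were above 0 in 16 of 19 tested (median 0.16), with list levels of 7.69 to 7.92 in corn-oil HFD arrays and 7.61 to 7.73 in low-fat arrays. Of 18 tested genes of MHC class II and antigen presentation, 15 were above 0 (median 0.14), with H2-Ab1 at 0.43 ± 0.17 (0.28 without corn-oil replicate 2) and the peptide transporter Tap2 at -0.32 ± 0.12. The inflammatory cytokine list had a median of 0.06, with the eosinophil chemokine Ccl11 at 0.28 ± 0.08 and Cxcl9 at 0.34 ± 0.14 (0.23 without low-fat replicate 2). Interferon-responsive genes were above 0 in 17 of 20 (median 0.08), with the smallest p-values at Ifit2 (0.23 ± 0.09) and Ubd (0.14 ± 0.07). The other kept probes of Ccl11 (-0.07) and Ifit2 (0.05) had overlapping groups. Markers of T, B and NK cells (median -0.01), mast cells (0.09), neutrophils and eosinophils (-0.02), nerve and Schwann cells (0.07), mesothelium (-0.07), erythroid cells (-0.09) and thymus and lymph node stroma (-0.02) had medians near 0. Liver markers were below 0 in 10 of 11 (median -0.09, but 0.03 without corn-oil replicates 3 and 4), with corn-oil replicate 2 the highest corn-oil array.

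Remaining pathways had medians between -0.18 and 0.35. The circadian list (13 tested) had a median of -0.18, which was -0.02 with the muscle score as covariate and -0.03 without low-fat replicate 2, with the clock activator Arntl at 0.26 ± 0.08 and the repressor Ciart at -0.28 ± 0.11. Heat shock genes (13 tested, median -0.18, and -0.30 without low-fat replicate 2) included the small chaperone Cryab at 0.97 ± 0.40, which was 0.51 with the covariate, and Hspa8 at -0.25 ± 0.19. The antioxidant list (27 tested, median -0.07, but 0.01 without low-fat replicate 2) included metallothionein Mt1 at -0.52 ± 0.14 and Nqo1 at 0.11 ± 0.04. In the ATF4 and unfolded protein list (21 tested, median 0.02) the serine synthesis enzyme Phgdh differed by 0.18 ± 0.07 and Dnajb9 by -0.45 ± 0.18. Immediate early genes (15 tested, median 0.12, but -0.07 without corn-oil replicates 3 and 4) had their smallest p-values at Jun (0.32 ± 0.17, but 0.16 without corn-oil replicate 1) and Dusp1 (0.67 ± 0.40, but 0.35 without corn-oil replicate 3). Cell cycle genes (15 tested, median 0.02) had them at Mcm5 (0.15 ± 0.07) and Mcm2 (0.08 ± 0.04). The creatine and calcium cycling list had a median of 0.35, but 0.03 with the covariate and 0.0 without corn-oil replicates 3 and 4; Slc6a8 differed by 0.37 ± 0.12 and Gamt by 0.32 ± 0.11.

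**Figure D3:**
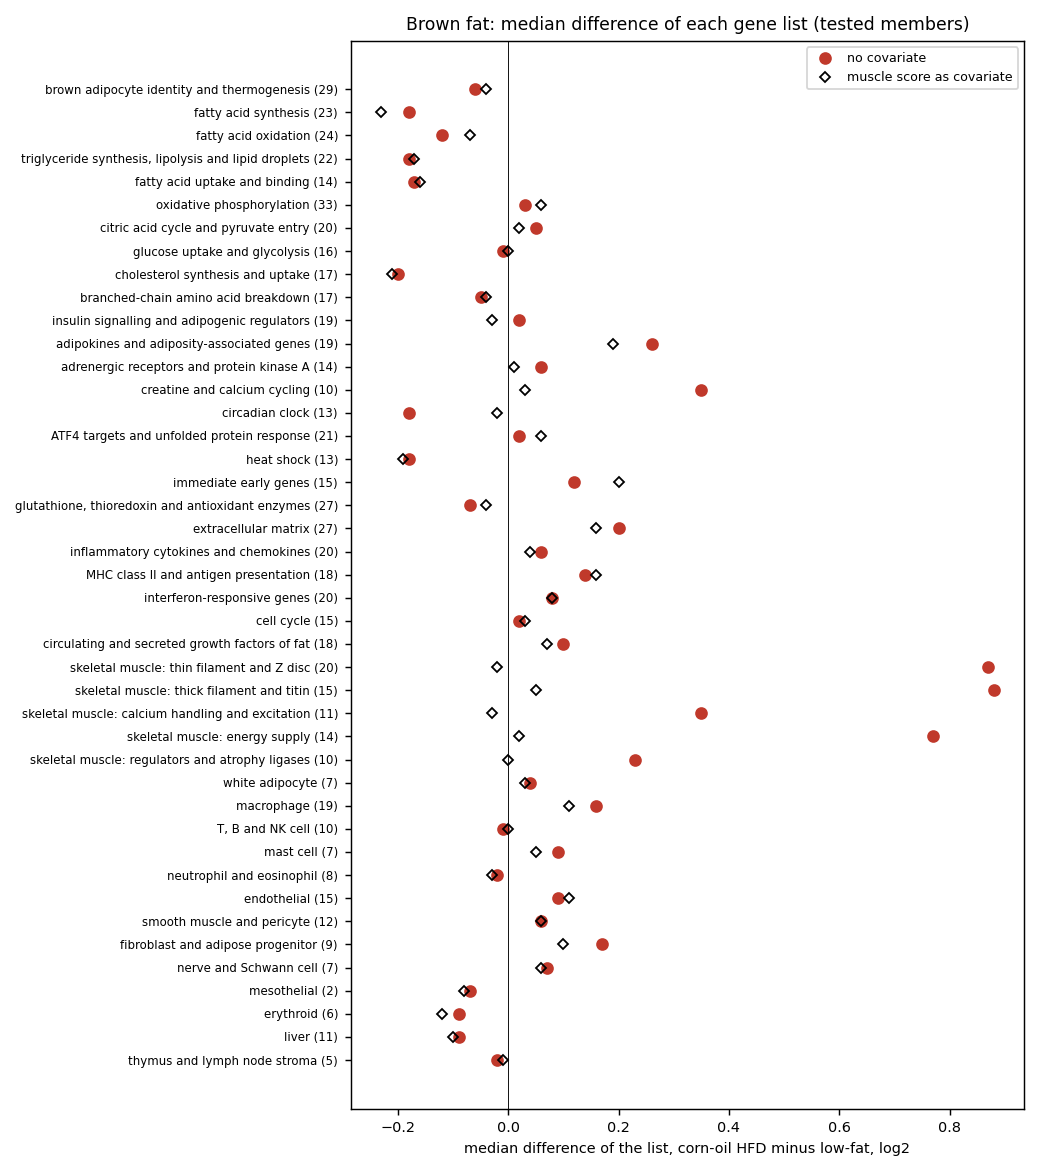
Median corn-oil HFD minus low-fat difference (log2) of each gene list, as red points without and black diamonds with the muscle score as a covariate; the number of tested genes is in brackets. The muscle lists lie at 0.23 to 0.88 without the covariate, and within 0.05 of 0 with it by construction, since the score is the mean of those genes. The adipokine list lies at 0.26 without and 0.19 with the covariate, and the extracellular matrix list at 0.20 without and 0.16 with it.

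Skeletal muscle transcripts varied widely between brown arrays of the same diet. Of the 81 listed muscle genes 74 had a probe and 70 were tested, and 67 of the 70 had a positive difference (48.2% of all tested genes did), with a median of 0.68. None of the muscle genes passed. At an unadjusted p of 0.05, 2 of the 70 were past the threshold on the higher side (3.94% of all genes were) and 1 on the lower side (5.16% of all genes). Only Ak1 was separate higher (0.59 ± 0.19) and Fbp2 separate lower (-0.44 ± 0.10). The muscle score, the mean log2 value of the 74 genes, was 8.64, 8.51, 9.91 and 9.73 in corn-oil HFD arrays, against 8.59, 7.99, 8.56 and 9.07 in low-fat arrays. Corn-oil replicates 3 and 4 were high, low-fat replicate 2 was low, and the other 5 arrays lay between 8.51 and 9.07. The score averaged 9.20 ± 0.72 in corn-oil HFD arrays and 8.55 ± 0.44 in low-fat arrays, and the difference of 0.65 was smaller than the SD of the corn-oil arrays and ranged from 0.41 to 0.88 when 1 array was left out.

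The variation was not confined to these diets: EPA/DHA brown arrays scored 8.39, 9.37, 7.63 and 10.04, and all 12 white fat arrays lay between 7.40 and 7.44. Of the 50 most variable genes over the 8 arrays, 31 were in the muscle lists, where 70 of the 13400 tested genes are. The lists were chosen with earlier results of these data known, so this share is not independent evidence. Among the 70 tested muscle genes, 54 were highest in corn-oil replicate 3 and 10 in replicate 4, and 53 were lowest in low-fat replicate 2. Most muscle genes thus had the same array highest and the same array lowest.

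Myl2, a myosin light chain of slow fibres, had 10.05, 8.65, 12.53 and 12.29 on corn oil, against 9.29, 7.52, 8.83 and 10.76 on the low-fat diet, a difference of 1.78 ± 1.21. Slow-fibre troponins did likewise, with differences of 1.52 ± 1.03 for Tnnc1 and 1.51 ± 1.11 for Tnnt1. Fast-fibre genes were also highest in corn-oil replicates 3 and 4 and lowest in low-fat replicate 2: Tnnt3 differed by 1.31 ± 0.97, Tnnc2 by 1.28 ± 1.16 and Tnni2 by 1.10 ± 1.05. Atp2a1, the calcium pump of fast fibres, whose promoter is shown above, had 12.25, 12.28, 14.06 and 14.04 on corn oil, against 12.29, 10.48, 12.11 and 13.15 on the low-fat diet, a difference of 1.15 ± 1.07. The median muscle difference was 0.52 without low-fat replicate 2. It was 0.0 without corn-oil replicates 3 and 4, which were left out because their muscle score was high, and 0.0 with the muscle score as covariate, which is built from the same genes, so both of these values follow from the choice. In the covariate fit 1160 of all tested genes (8.66%) had an unadjusted p under 0.05, and 1 (0.00746%), the dynein heavy chain gene Dync1h1 (0.30, adjusted p = 0.019 by limma), passed the adjusted threshold.

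Titin (Ttn) differed by 1.21 ± 0.97, Tpm2 (tropomyosin) by 1.22 ± 1.0, Tcap (telethonin) by 1.20 ± 1.04, myoglobin (Mb) by 1.34 ± 1.04 and the muscle isoform of cytochrome oxidase, Cox6a2, by 1.23 ± 0.97. In each the SE was large beside the difference. With the muscle score as covariate the differences of Ttn, Tpm2, Tcap, Tnnc2, Atp2a1 and Tnni2, which enter the score, lay between -0.20 and -0.02. What brought muscle transcripts into some arrays was not tested. Of 32 genes more than 1 unit higher on corn oil, 19 are in the muscle lists, where 70 of the 13400 tested genes are. Of the 13 others 8 separate the diets, all named above. Those outside the lists are not free of muscle genes, since Fhl1, a protein of striated muscle, is among them. As the lists were chosen with earlier results known, these counts are a description only.

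**Figure D4:**
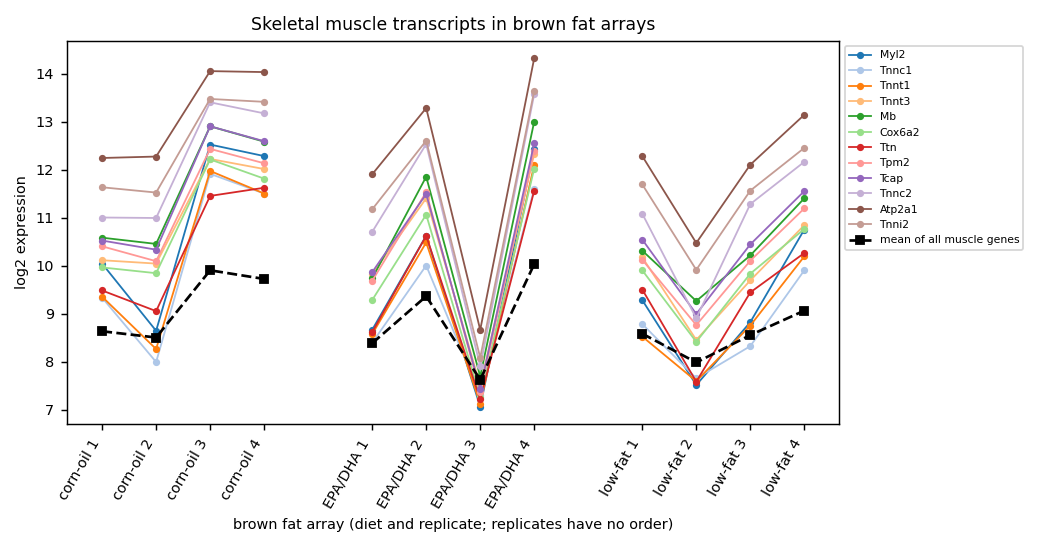
Log2 expression of 12 skeletal muscle genes (coloured lines) and of the mean of all 74 muscle genes (black dashed) in the brown arrays on corn-oil HFD, EPA/DHA HFD and low-fat diet. The lines run together, highest in corn-oil replicates 3 and 4 and in EPA/DHA replicate 4, and the score runs from 7.63 to 10.04.

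Whether the diet difference in brown fat differed from that in white fat was tested by limma as an interaction in a fit of all 24 arrays, where 93 of 14262 genes (0.652%) passed. The named genes were picked on the same brown contrast, so their share is not independent evidence. Among them, 12 passed. That fit took brown and white arrays as independent. With same-numbered brown and white arrays of a diet as a block, Acot1 (limma, adjusted p = 0.0508) and Uqcrc2 (limma, adjusted p = 0.0521) no longer passed. The brown minus white value was -0.71 for Mmd2 (limma, adjusted p = 0.00963), where the white fat difference was -0.02 ± 0.09. For Acot1 it was -1.65 (limma, adjusted p = 0.0483), with 0.21 ± 0.26 in white fat. Gldn had 1.26 (limma, adjusted p = 0.0327), with -0.07 ± 0.18 in white fat. Ubd, a ubiquitin-like modifier induced by cytokines, had -2.41 (limma, adjusted p = 8.97e-06), its white fat difference being 2.56 ± 0.15. The cholesterol synthesis gene Hsd17b7 had -0.92 (limma, adjusted p = 0.00993), with 0.60 ± 0.11 in white fat. Pex14, Tspan18, Hebp2 and C1qtnf4 were more negative in brown fat, and Klc1, Fgf10 and Uqcrc2 more positive. In low-fat white fat, Mmd2 (7.10), C1qtnf4 (7.11), Hebp2 (7.14) and Gldn (7.17) lay at the floor, with Tspan18 (7.44) and Acot1 (7.50) close to it. A white fat difference near 0 in these genes therefore does not show that they lack a diet response there. The interaction also takes its spread from both tissues. Its SE was 0.12 for Mmd2, 0.26 for Gldn and 0.08 for Hebp2, against 0.11, 0.24 and 0.07 in the brown fit. For genes at or near the floor in white fat, its p-values do not measure the spread of brown arrays alone. Lep had 1.74 with an adjusted p of 0.186 (limma), so a difference between the tissues was not shown for it.

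**Figure D5:**
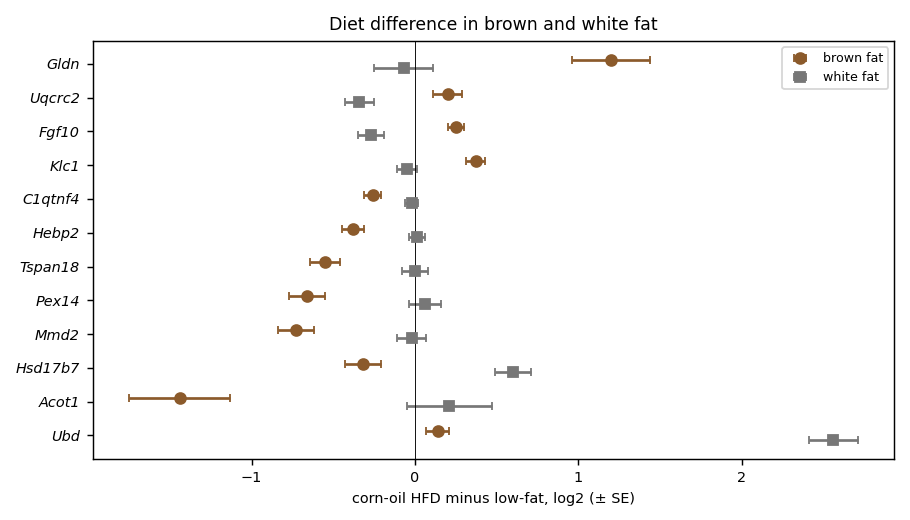
Corn-oil HFD minus low-fat difference (log2 ± SE) in brown fat (circles) and white fat (squares) for 12 named genes whose interaction passed. Gldn (1.20) and Acot1 (-1.44) stand apart from 0 in brown fat, and Ubd in white fat.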

How the data were processed

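RNA of brown and white fat was measured on 24 Illumina arrays, 4 for each of 3 diets in each tissue. The table the authors deposited gives a log2 value for every probe, and the submitters' processing notes name lumi 2.18.0. The background correction and the transform are not given in the sources used here, so the scale may be a plain or a variance-stabilised log2. After sorting, arrays differed by no more than 0.0069 at any rank, as quantile normalised values do, which hides any change in total signal. No detection calls were applied, and the number of arrays limits the precision.

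The table held 45281 probes. Platform annotation gave 1 symbol to 34885 probes, several to 18 and none to 10378, and 34818 matched a RefSeq gene (GRCm38.p6). For each of 19053 genes the brightest probe (mean of the 24 arrays) was used. Probes with a mean over the 12 brown arrays above the 40th percentile (7.11) were kept, which left 27168 probes and 13400 genes. limma 3.58.1 (R 4.3.3; lmFit and eBayes) was fitted to the 12 brown arrays with 1 mean per diet, two-sided, with Benjamini-Hochberg adjustment over the kept probes and a threshold of 0.05. The interaction used all 24 arrays and 29493 probes. The pipeline was tested on simulated data. Python 3.11.15 was used for summaries.

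The muscle score is the mean log2 value of the measured skeletal muscle genes of an array; the covariate used the kept ones. The members, the 43 gene lists (798 genes, 724 with a probe) and the tests were chosen with earlier results of these data known, so lists are described by counts and medians only. Named genes are the 20 smallest p-values, the 8 largest differences each way among genes whose groups did not overlap, 12 genes always given, the 12 muscle genes of largest range over the 8 arrays and the 2 members of smallest p of each pathway list. Other genes that are named, such as separate members of a list, were chosen after their values were seen. Alternatives were other filters, normalizations, priors, array weights, samples in the fit, the muscle covariate, the replicate block, the mean of a gene's probes, and leaving out arrays.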

Additional observations from a re-analysis of the deposited data

Results flagged for a closer look

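Of 288 groups of 4 arrays looked at for a lone array, 4 had one whose gap to the nearest other array, divided by the group's range, exceeded Dixon's critical value, and chance gives about 1 in 20. Ccl11 in corn-oil HFD arrays had a ratio of 0.861, its replicate 4 reading 8.83 where the remaining 3 arrays read 8.97 to 8.99. The circadian list in low-fat arrays had 0.929, with replicate 2 at 8.29 against 8.38 in the others. The T, B and NK cell list in low-fat arrays had 0.88, with replicate 2 at 7.65 against 7.66. The liver list in corn-oil HFD arrays had 0.839, with replicate 2 at 7.95 against 7.28 to 7.39.

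The diet difference differed between brown and white fat, by limma's interaction test, in 12 of the named genes. Brown minus white values were -0.71 for Mmd2, -0.55 for Tspan18, -0.71 for Pex14, -0.39 for Hebp2, -0.24 for C1qtnf4, -1.65 for Acot1, -0.92 for Hsd17b7 and -2.41 for Ubd. They were 0.42 for Klc1, 0.52 for Fgf10, 1.26 for Gldn and 0.54 for Uqcrc2. These genes had been chosen for their brown fat difference. With same-numbered brown and white arrays of a diet as a block, Acot1 and Uqcrc2 no longer passed. Mmd2, C1qtnf4, Hebp2 and Gldn lay at the floor in low-fat white fat, and Tspan18 and Acot1 close to it. For these genes the interaction p-values do not measure the spread of brown arrays alone.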

How the results depend on the processing

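The count of genes past the threshold was 0 in the reported fit and 3 with a trended and robust prior (Mmd2, Car5b and Pkp2), 88 in the fit over all 24 arrays, 1 with the muscle score as covariate (Dync1h1) and 2 without low-fat replicate 2 (Mmd2 and Tppp). Over the arrays left out in turn it ranged from 0 to 2. The matching probe counts were 11, 150, 1 and 2, against 0, and from 0 to 2 over the arrays left out. It stayed 0 with median centring, with renewed quantile normalization, without a filter, with one at the 60th percentile, array weights, the 8 arrays alone, the mean of a gene's probes, and without both corn-oil HFD arrays highest in muscle score. Genes at an unadjusted p of 0.05 numbered 1220, but 1846 over all 24 arrays and 780 without those arrays. The reported fits did not treat same-numbered arrays as pairs. Deviations of same-numbered corn-oil and low-fat brown arrays correlated at 0.078, 0.284, -0.211 and 0.436. Those of differently numbered ones ran from -0.432 to 0.349. Deviations of the 12 same-numbered brown and white arrays of a diet correlated at -0.19 to 0.071. These correlations cannot decide whether same-numbered arrays belong together. With a replicate block 0 genes passed and 1231 had an unadjusted p under 0.05, and the interaction count was 81 against 93, Acot1 (-1.65, adjusted p = 0.0508) and Uqcrc2 (0.54, adjusted p = 0.0521) no longer passing. Of 2000 pairs of a named gene and a setting, 1954 kept direction and side of the threshold, 32 newly passed (28 over all 24 arrays) and 14 in 10 genes changed sign; the cause was not tested. With the muscle covariate, which is built from muscle genes, these were Ttn (-0.021), Tpm2 (-0.048), Tcap (-0.119), Tnnc2 (-0.164), Atp2a1 (-0.159), Tnni2 (-0.197), Adipoq (0.015) and Scd1 (0.032). Without both corn-oil arrays highest in muscle score they were Tnnc1 (-0.004) and Scd1 (0.062). Over the arrays left out in turn, Pdk4 ranged from -0.294 to 0.014 (without corn-oil replicate 3) and Scd1 from -0.081 to 0.06; Scd1 was 0.06 without corn-oil replicate 4, 0.034 without low-fat replicate 1 and 0.025 without low-fat replicate 3. With 4 arrays a group, and bright genes near the top of the range, small differences could not be resolved.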

Other observations

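In low-fat replicate 2, the array with 319 genes more than 1 log2 unit from the median of the other low-fat arrays, 3 genes were chosen as examples after their values were seen. Neat1, a nuclear long non-coding RNA, was at 9.98, 11.06, 10.38 and 10.52 in corn-oil HFD arrays and at 10.34, 7.85, 10.80 and 10.37 in low-fat arrays. Luc7l3, a splicing factor, was at 10.19, 10.28, 10.06 and 10.54 in corn-oil HFD arrays and at 10.28, 8.05, 10.69 and 10.57 in low-fat arrays. Eif5, a translation initiation factor, was at 11.90, 11.89, 11.85 and 12.03 in corn-oil HFD arrays and at 11.98, 9.84, 12.04 and 12.19 in low-fat arrays. Each was lowest in low-fat replicate 2. Hspa1a, an inducible chaperone, ranged from 7.58 to 11.70 in corn-oil HFD arrays and from 9.51 to 11.33 in low-fat arrays.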
